A study of Brassica rapa with 23 samples.

Results

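Some Brassica rapa genes respond to microbial patterns with a strong and short-lived pulse of transcript. The genes described here had at least 3 units more log2(FPKM + 1) with both chitin and flg22 than with water at 30 min, and were within 1 unit of water with both at 180 min. FPKM counts sequenced fragments after scaling by the length of the gene and the size of the library, and 1 unit on the log2 scale is a doubling for genes well above 1 FPKM. Water itself was allowed to move by less than 1.5 units between the times. This rule chose 99 of the 41020 listed genes, or 0.241%. All 99 passed the filter on low values, which asked that 3 or more of the 23 libraries reach 1 FPKM, but 16 of them passed only through the chitin and flg22 libraries at 30 min, since 83 would have passed without those. The rule used the deposited values themselves, so the size of the early response and the nearness to water at 180 min are given as a description and not as a test.

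The libraries come from leaf discs of 17-day-old plants of Norang, 1 commercial cultivar of Chinese cabbage (B. rapa ssp. pekinensis), with several discs pooled in each replicate. Discs were treated with 100 µg/ml chitin, 100 nM flg22 or water, for 30 or 180 min. There were 3 libraries for chitin and 3 for flg22 at each time, and water had 6 libraries at 180 min and 5 at 30 min. The labels call the replicates biological and do not say which water library was the control of which MAMP (microbe-associated molecular pattern), so every water library of a time served both. The study lists separate water controls for chitin and flg22, which share 1 library at 30 min. Within each replicate number, the order of depth matches water 2-s13 and 3-s21 (replicate and title number) at 30 min to chitin. It matches 2-s9 and 3-s17 to flg22. At 180 min it matches 1-s7, 2-s15 and 3-s23 to chitin and 1-s3, 2-s11 and 3-s19 to flg22. The title numbers give the same match, since each of these water libraries is numbered directly before a library of the MAMP it is matched to. The match was not tested further.

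Chitin is a polymer of fungal cell walls and flg22 is a peptide from bacterial flagellin. In Arabidopsis, chitin is perceived by receptor kinases with LysM domains, among them CERK1 and LYK5, and flg22 by the leucine-rich repeat kinase FLS2. Both set off pattern-triggered immunity, in which a burst of reactive oxygen species, calcium influx and kinase cascades precede a broad change of transcription. Immediate-early genes are a known feature of that response: their transcripts accumulate before most others and, being short-lived, decline again once transcription slows. None of the 99 identifiers is annotated with a name by the sources used here, so the genes are described by identifier, position on the v1.5 build and values, with no function. The tissue label was not checked against leaf markers for the same reason. None of the 23 genes that the study names by identifier, which include homologs of the receptors and the marker gene BraNHL10, met the rule. Of these 23, 4 met its 30 min part, among them the LYK5 homolog Bra021861, whose differences from water at 30 min were 4.53 with chitin and 4.24 with flg22, but whose chitin difference at 180 min was 1.74.

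Depth was similar throughout, with 4.09 to 5.64 gigabases of aligned sequence per library. At 30 min the median tested gene was 0.46 lower than in water with chitin and 0.47 lower with flg22 on the log2 scale of FPKM, and median-ratio scaling moved these medians to -0.04 and -0.05. With that scaling the members' median differences at 30 min were 4.03 for chitin and 4.63 for flg22, against 3.58 and 4.17 without it. These are bulk samples, in which fewer cells of a type and less RNA per cell cannot be told apart.

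A quick return was the less frequent form of the strong early response. Of the 41020 genes, 507 were at least 3 units higher than water with both MAMPs at 30 min, and the members are 19.5% of them. At 180 min, 181 of the 507 were still at least 1 unit higher with both MAMPs, and 196 only with chitin, with flg22 within 1 unit of water. In contrast, only 4 were at least 1 unit higher with flg22 alone. A further 20 were at least 1 unit lower than water with flg22 and within 1 unit with chitin, 1 was the reverse, and 5 were higher with chitin and lower with flg22. The remaining 100 were within 1 unit with both, and 1 of these missed the limit set on water.

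**Figure D1:**
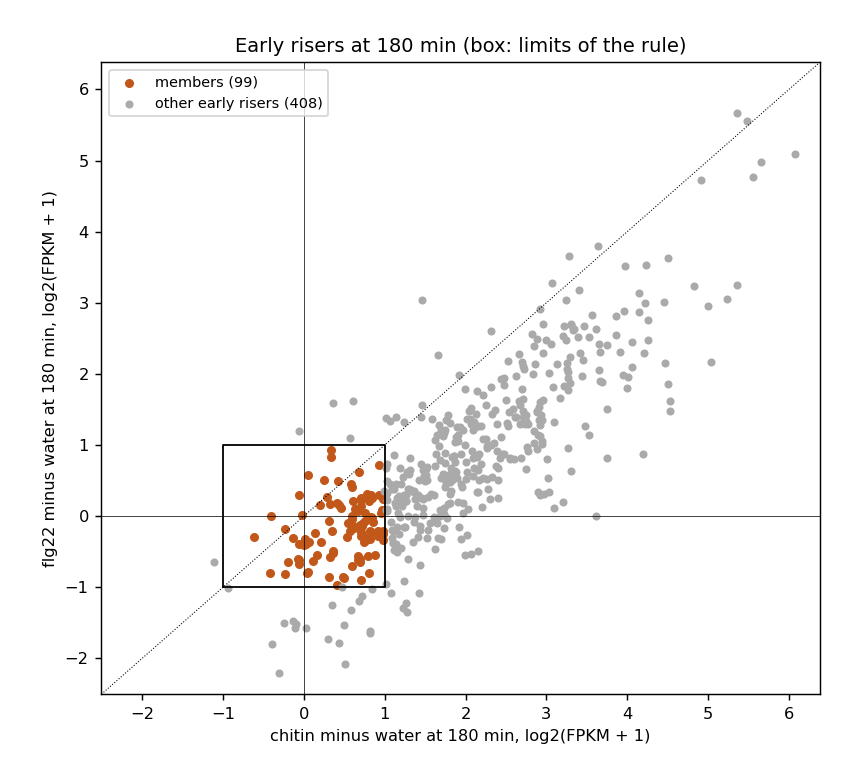
Difference from water at 180 min of the 507 genes that were at least 3 log2 units higher with both MAMPs at 30 min, with chitin on the x axis and flg22 on the y axis, both as log2(FPKM + 1). The 99 members lie in the box that the rule defines, 89 of them below the dotted line of equal chitin and flg22 values, and the 408 other early risers spread mainly to the right of the box.

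The limits divide a continuum. Just inside the early limit of 3 were Bra013672, with a flg22 difference of 3.00, and Bra033431, with a chitin difference of 3.01, whereas Bra036353 (flg22, 2.98) and Bra024886 (chitin, 2.996) were just outside. At 180 min, Bra018812 (chitin, 0.98) and Bra004847 (flg22, -0.97) were just inside the limit of 1, and Bra015961 (chitin, 1.02) and Bra028555 (flg22, -1.001) just outside.

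In water these genes ranged from silent to well expressed. Their mean FPKM in water at 30 min had a median of 4.16 and reached 79.3, with 28 members under 1 FPKM, 39 from 1 to 10 and 32 at 10 or more. The medians were 79.0 FPKM with chitin and 111 FPKM with flg22 at the same time. For all 99 members every chitin library was above every water library at 30 min, as was every flg22 library, which the rule makes likely and which held for 10.3% and 12.2% of the 24384 tested genes. The median member was 3.58 higher with chitin (range 3.01 to 6.60) and 4.17 higher with flg22 (3.00 to 7.58). Together the members made up 1.23% to 1.38% of the summed FPKM in the chitin libraries and 1.81% to 2.01% in the flg22 libraries at 30 min, against 0.0785% to 0.121% in water. At 180 min their share was 0.145% to 0.161% with chitin and 0.0673% to 0.104% with flg22, against 0.0667% to 0.133% in water. Chitin libraries at 180 min were thus all above the highest water library by this sum, and flg22 libraries were all within the range of water.

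**Figure D2:**
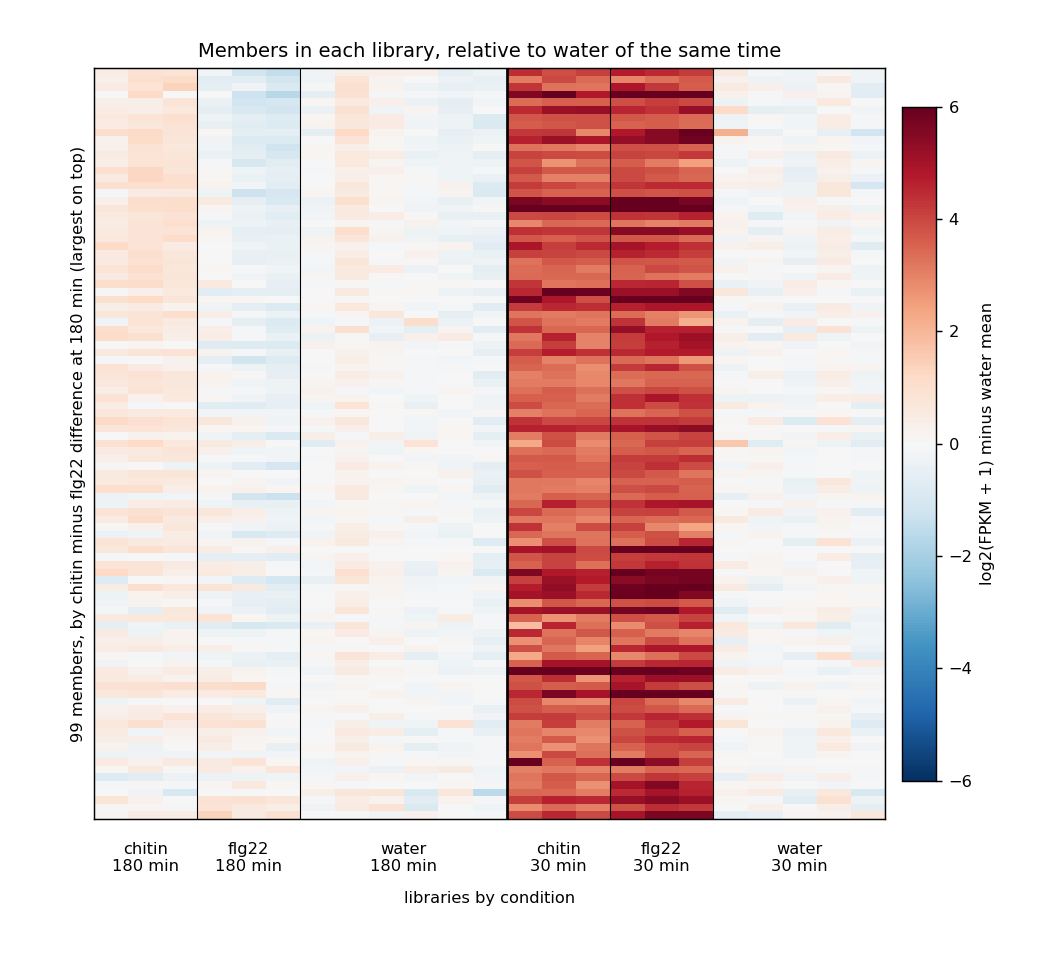
Each of the 99 members (vertical) in each of the 23 libraries (horizontal, grouped by condition), coloured by log2(FPKM + 1) minus the mean of the water libraries of the same time; colours saturate at 6 units. The 6 chitin and flg22 libraries at 30 min are red for every member, whereas at 180 min most members are faintly red with chitin and faintly blue or white with flg22; the second water column at 180 min is replicate 1-s7.

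The most abundant transcripts of the group gave the clearest view of the pulse. Bra004546 (A05, 742942 to 743312, plus strand) was the highest. At 30 min it had 773, 711 and 617 FPKM with chitin and 1180, 1130 and 940 FPKM with flg22, against 72.9, 79.0, 88.8, 81.8 and 74.1 FPKM in water. At 180 min it had 75.9, 115 and 95.3 FPKM with chitin and 52.3, 39.1 and 26.2 FPKM with flg22, against 49.6 to 76.1 FPKM in water (median 63.7). Thus at 180 min 2 chitin libraries were above every water library, 2 flg22 libraries were below every one, and chitin and flg22 libraries did not overlap at either time.

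Bra011500 (A01, 1932361 to 1934224, minus strand) behaved alike. At 30 min it had 611, 727 and 734 FPKM with chitin and 876, 1064 and 931 FPKM with flg22, against 47.7, 55.4, 53.4, 88.5 and 58.6 FPKM in water. At 180 min the values were 64.3, 64.7 and 85.9 FPKM with chitin and 37.4, 22.1 and 23.2 FPKM with flg22, against 34.4 to 76.7 FPKM in water (median 49.1). Again the flg22 libraries were the higher ones at 30 min and the lower ones at 180 min.

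Bra031763 (A09, 36605790 to 36609164, plus strand) shows a member whose water level moved. It had 919, 548 and 681 FPKM with chitin and 973, 809 and 636 FPKM with flg22 at 30 min, against 36.2, 38.1, 23.6, 40.6 and 17.3 FPKM in water, so chitin and flg22 overlapped. At 180 min it had 133, 105 and 84.4 FPKM with chitin and 59.9, 49.9 and 45.0 FPKM with flg22, against 38.2 to 71.6 FPKM in water (median 64.8). Its water mean was 60.8 ± 12.3 FPKM at 180 min (SD, n = 6) and 31.2 ± 10.2 FPKM at 30 min (SD, n = 5), a difference of 0.98 on the log2 scale that is among the largest of the members.

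The other members of the 6 with the highest early levels were Bra016253, Bra001422 and Bra000670. Bra016253 averaged 602 ± 171 FPKM with chitin and 811 ± 144 FPKM with flg22 at 30 min (SD, n = 3 each), against 62.3 ± 15.7 FPKM in water (n = 5). For Bra001422 the averages were 493 ± 27.9 FPKM with chitin and 653 ± 106 FPKM with flg22, against 29.3 ± 4.46 FPKM in water. Bra000670 (A03, 12400143 to 12400523) averaged 362 ± 76.2 FPKM with chitin and 764 ± 154 FPKM with flg22, against 42.3 ± 10.4 FPKM in water. It was the exception at 180 min, with 21.7, 22.5 and 19.4 FPKM with chitin below 37.3, 30.1 and 26.4 FPKM with flg22, against 10.9 to 37.9 FPKM in water (median 18.8).

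**Figure D3:**
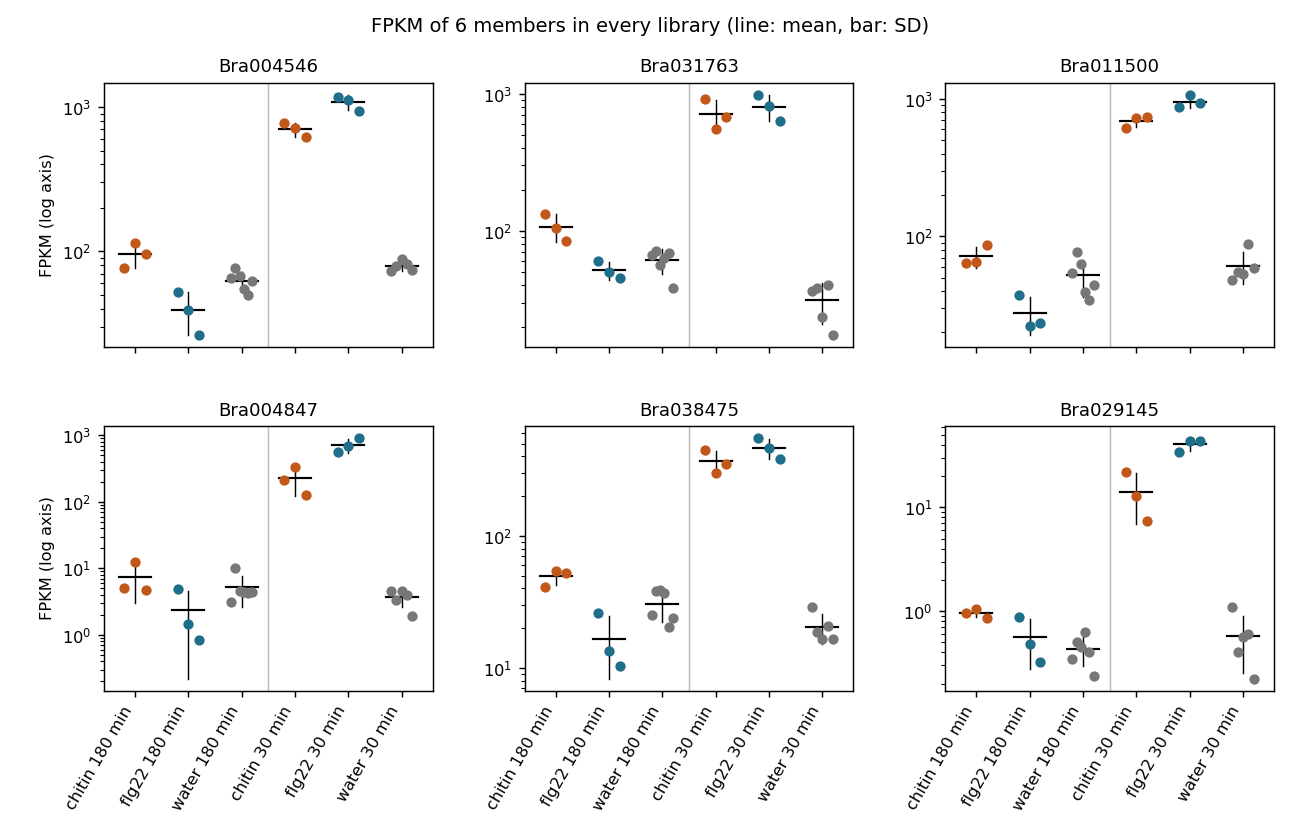
FPKM of 6 members in every library (points, log axis) by condition, with the mean (line) and SD (bar) of each condition. In each panel the 3 chitin and 3 flg22 points at 30 min lie above every water point, and at 180 min the chitin points of Bra004546, Bra031763, Bra011500 and Bra038475 lie above the flg22 points.

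Among members with at least 1 FPKM in water at 30 min, the largest early differences belonged to Bra004847, Bra036481, Bra006417, Bra039099, Bra002408 and Bra010041. Bra004847 (A05, 2124205 to 2124642, minus strand) had 211, 338 and 128 FPKM with chitin and 552, 695 and 893 FPKM with flg22 at 30 min, against 4.49, 3.35, 4.55, 4.04 and 1.92 FPKM in water. At 180 min it had 5.05, 12.5 and 4.78 FPKM with chitin and 4.86, 1.46 and 0.839 FPKM with flg22, against 3.09 to 10.2 FPKM in water (median 4.46). It was 5.53 higher with chitin and 7.27 higher with flg22 than with water at 30 min, and its transcript was back in the range of water, or under it, in every library at 180 min but 1 chitin library.

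Bra036481 (A07, 155506 to 155931, plus strand) had 267, 223 and 214 FPKM with chitin and 504, 359 and 267 FPKM with flg22 at 30 min, against 3.46, 4.24, 5.60, 3.95 and 4.27 FPKM in water. At 180 min it had 3.35, 6.33 and 6.26 FPKM with chitin and 4.13, 1.29 and 0.840 FPKM with flg22, against 1.60 to 5.81 FPKM in water (median 2.11). Bra039099 (A09, 1519372 to 1519957, plus strand) had 238, 507 and 379 FPKM with chitin and 589, 697 and 752 FPKM with flg22 at 30 min, against 15.0, 10.2, 13.5, 16.4 and 10.9 FPKM in water. The differences of the remaining 3 from water at 30 min were 4.33 to 5.11 with chitin and 5.28 to 5.47 with flg22. Bra010041 was one of the 10 members with a higher mean in flg22 than in chitin libraries at 180 min, with 3.54, 2.21 and 1.77 FPKM with chitin and 3.89, 4.16 and 3.48 FPKM with flg22, against 0.673 to 2.75 FPKM in water (median 1.88).

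Below 1 FPKM in water the pulse could be larger still, though there the added 1 FPKM holds the log2 difference down. Bra005312 (A05, 4750426 to 4753464, plus strand), chosen after its values were seen because its mean early difference was the largest, had 145, 146 and 156 FPKM with chitin and 285, 299 and 295 FPKM with flg22 at 30 min, against 0.485, 0.294, 0.816, 0.983 and 0.250 FPKM in water. The 3 libraries of each MAMP were close to each other and the groups were far apart. Bra018254 (A05, 6965525 to 6965743, plus strand) was the only member listed at 0 in every one of the 11 water libraries. It had 29.7, 31.5 and 14.6 FPKM with chitin and 72.6, 63.5 and 72.6 FPKM with flg22 at 30 min. It was still found in every treated library at 180 min, with 0.613, 1.11 and 0.659 FPKM with chitin and 0.367, 0.0777 and 0.255 FPKM with flg22. A further 11 members were at 0 in some water library, and none was at 0 in a chitin or flg22 library at 30 min.

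Chitin and flg22 were then compared directly, since the rule does not fix which of them is higher. Its limits do bound the size of the difference, most of all at 180 min, where both MAMPs had to be within 1 unit of water. The study lists separate water controls for the 2 MAMPs, and this comparison holds no water level. Any difference between chitin and flg22 discs that their own controls share therefore cannot be told apart from the MAMP here. At 30 min flg22 gave the higher level for most members. The chitin minus flg22 difference had a median of -0.48 (range -1.88 to 0.65), against 0.01 over all tested genes, and it was negative for 81 members. By limma's moderated test on all tested genes with Benjamini-Hochberg adjustment (adjusted p under 0.05), 17 of the 99 members (17.2%) were lower with chitin than with flg22, where 0.837% of all tested genes were. None was higher with chitin, where 0.55% of all were. At an unadjusted p under 0.05, 45 were lower (5.75% of all) and 1 was higher (9.95% of all), and 19 of the lower ones also differed by at least 2-fold (1.65% of all). Every chitin library was below every flg22 library for 51 members (7.51% of all tested genes), and above every one for 2 (9.28%). The count of 17 depended on single libraries: it was 4 without chitin replicate 3, 6 without flg22 replicate 2 and 11 without flg22 replicate 3. It also includes some of the 16 members that passed the filter only through the libraries compared here, among them Bra025953, Bra029145 and Bra018254. The share called was not computed without such genes.

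The largest of these differences was that of Bra025953 (A06, 6485251 to 6486415, minus strand). At 30 min it had 10.0, 14.6 and 7.53 FPKM with chitin and 40.1, 58.7 and 28.8 FPKM with flg22, against 0.127 to 0.408 FPKM in water. Chitin was lower than flg22 by 1.88 on the log2 scale (SE 0.21, limma adjusted p = 6.64e-05). The next was Bra004847, described above, with a difference of -1.74 (SE 0.43, limma adjusted p = 0.0464). Its call was lost with limma adjusted p between 0.0551 and 0.362 without chitin replicate 1, chitin replicate 3, flg22 replicate 2 or flg22 replicate 3.

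Bra029145 (A03, 6561136 to 6562659, minus strand) had 21.8, 13.0 and 7.44 FPKM with chitin and 34.4, 43.7 and 43.8 FPKM with flg22 at 30 min, against 0.224 to 1.08 FPKM in water. Its difference was -1.57 (SE 0.25, limma adjusted p = 0.00201). For Bra018254, listed at 0 in water, the difference was -1.50 (SE 0.19, limma adjusted p = 0.000158). In these 4 genes no chitin library reached the lowest flg22 library at 30 min. The SE of each pools the spread of all conditions, including water, where Bra018254 did not vary. It does not measure the spread of the 30 min chitin and flg22 libraries alone. With only the 2 conditions compared, the limma adjusted p of these 4 genes was 0.231 to 0.239. The direction at the other extreme was less certain: Bra020301 and Bra020302, the members with the most positive differences, were 0.65 and 0.62 higher with chitin, with limma adjusted p of 0.332 and 0.297.

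At 180 min the order of the MAMPs was the opposite. The median chitin minus flg22 difference was 0.64 (range -0.60 to 1.61), against -0.10 over all tested genes, and it was positive for 89 members. By the same test 44 of the 99 members (44.4%) were higher with chitin than with flg22, where 4.08% of all tested genes were, and none was lower, where 7.27% of all were. At an unadjusted p under 0.05, 62 were higher (9.1% of all) and 1 was lower (18.8% of all), and 25 of the higher ones also differed by at least 2-fold (2.99% of all). Every chitin library was above every flg22 library for 62 members (14.4% of all tested genes) and below every one for 5 (27.3%). The count of 44 was 20 without flg22 replicate 3, 25 without chitin replicate 2 and 26 without flg22 replicate 2. Some of the 44, such as Bra012806 and Bra031455, were under 1 FPKM in every library at 180 min. These 2 passed the filter only through the chitin and flg22 libraries at 30 min. Bra012806 had 0.755, 0.633 and 0.654 FPKM with chitin and 0 FPKM in every flg22 library at 180 min.

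The comparison at 180 min was led by 3 members. Bra038475 (A01, 10775039 to 10775426, plus strand) had 41.2, 54.6 and 52.1 FPKM with chitin and 25.9, 13.5 and 10.3 FPKM with flg22 at 180 min, against 20.3 to 39.0 FPKM in water (median 30.9). It was 1.61 higher with chitin than with flg22 (SE 0.29, limma adjusted p = 0.00166). At 30 min it had 449, 302 and 353 FPKM with chitin and 548, 461 and 382 FPKM with flg22, against 16.6 to 29.0 FPKM in water, so that the 2 MAMPs overlapped then.

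Bra038796 (A03, 24039495 to 24040244, minus strand) had 4.63, 8.11 and 8.86 FPKM with chitin and 1.94, 1.87 and 1.13 FPKM with flg22 at 180 min, against 2.22 to 7.08 FPKM in water (median 3.25). The difference was 1.61 (SE 0.32, limma adjusted p = 0.00303). Bra022609 (A02, 7542311 to 7542884, plus strand) had 25.4, 31.9 and 45.8 FPKM with chitin and 11.6, 15.3 and 9.16 FPKM with flg22, against 12.5 to 35.9 FPKM in water (median 15.7). The difference was 1.43 (SE 0.39, limma adjusted p = 0.0210), and the call was lost without chitin replicate 2 or 3 or flg22 replicate 1 or 3 (limma adjusted p between 0.0638 and 0.101). In all 3 genes the chitin and flg22 libraries did not overlap at 180 min. Every chitin library was also above every water library for Bra038475, and every flg22 library was below every water library for Bra038796.

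The abundant members showed the same order at 180 min. Bra004546 was 1.30 higher with chitin than with flg22 (SE 0.20, limma adjusted p = 0.000626) and Bra011500 was 1.37 higher (SE 0.26, limma adjusted p = 0.00235). Bra031763, Bra016253 and Bra001422 were 1.03, 1.19 and 1.01 higher, with limma adjusted p between 0.00298 and 0.0257. Bra000670 and Bra010041 were 0.53 and 0.50 lower, with limma adjusted p of 0.288 and 0.302.

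**Figure D4:**
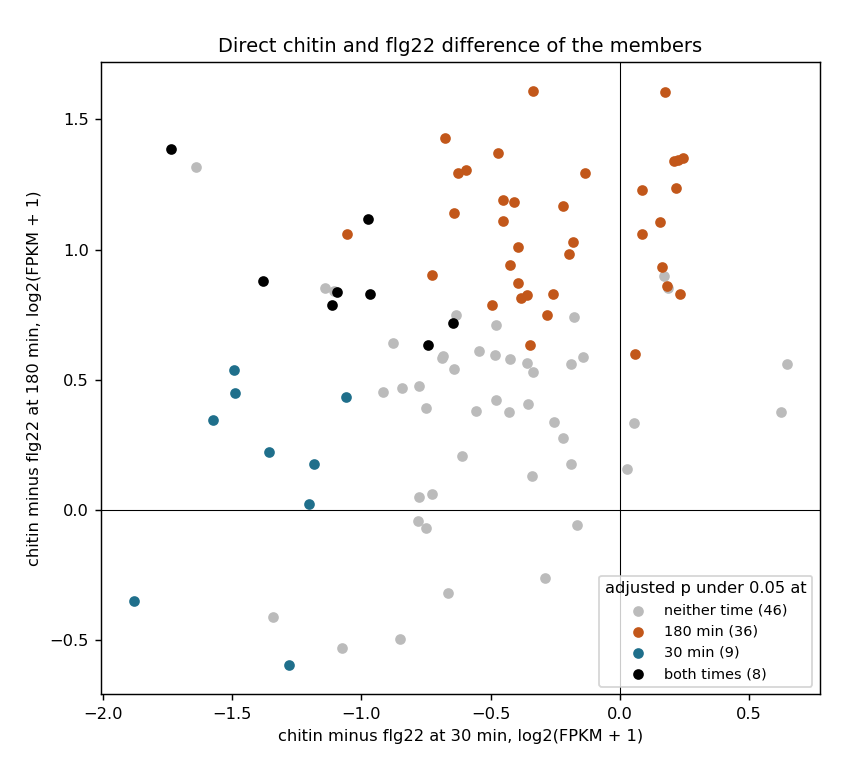
Chitin minus flg22 difference of each member on the log2(FPKM + 1) scale, at 30 min (x axis) and at 180 min (y axis), coloured by the time at which limma's adjusted p was under 0.05. Most of the 99 points lie in the upper left quadrant, 36 were called at 180 min alone, 9 at 30 min alone, 8 at both and 46 at neither.

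Side by side, the members were of 3 kinds by sign. Flg22 was higher at 30 min and chitin at 180 min for 71 members, chitin was higher at both times for 18, and flg22 at both for 10. The difference at 180 min was compared with that at 30 min by an interaction term, a test added after the data were seen, and it was higher at 180 min for 52 members (3.31% of all tested genes) and lower for none (4.8%). At an unadjusted p under 0.05 it was higher for 74 (8.09% of all) and lower for 0 (15.8% of all). By the adjusted p it was higher for 27 without flg22 180 replicate 3, and for 32 without chitin 180 replicate 2 or without chitin 30 replicate 3. For Bra004847 the change was 3.12 (SE 0.61, limma adjusted p = 0.00419). Members with a relatively higher chitin level at 30 min also tended to have it at 180 min (Pearson correlation 0.30 and Spearman correlation 0.29 over 99 members, with no library in common; a description).

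This order was not particular to the fast-returning genes. Of the 408 other early risers, 55.9% were higher with chitin than with flg22 at 180 min by the same test and 0.49% were lower, and their median difference was 1.25. At 30 min 6.37% of them were lower with chitin and none was higher, with a median of -0.60. Whether the 2 groups of genes differ in this was not tested, since the rule sets the values of one at 180 min.

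Between the times, water itself passed an adjusted p of 0.05 as higher at 180 min for 4 members (5.67% of all tested genes) and as lower for 7 (5.74%), with a median difference of -0.03. The water libraries also bear on how the values at 180 min are read. The members were not all alike relative to water: 56 were above water with chitin and below it with flg22, 30 were above with both, 11 were below with both and 2 were below with chitin and above with flg22. With chitin, 51 members (51.5%) passed an adjusted p of 0.05 as higher than water at 180 min (21.3% of all tested genes) and 1 as lower (33.3%), with a median of 0.59. With flg22, 5 (5.05%) passed as higher (19% of all) and 18 (18.2%) as lower (22.3%), with a median of -0.21. The rule used these contrasts, so the counts only describe what "back by 180 min" means here. Every chitin library was above every water library for 37 members (20.1% of all tested genes), and every flg22 library was below every water library for 11 (22% of all).

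Water replicate 1-s7 at 180 min held the highest of the 6 water values for 72 of the 99 members. The median member was 0.37 above the water mean in it, and between 0.24 below and 0.08 above in the other 5. In the 3 chitin libraries the median member was 0.47, 0.64 and 0.57 above the water mean, and in the 3 flg22 libraries it was 0.04 above, 0.22 below and 0.41 below. Chitin libraries were therefore above every water library by this measure, 2 flg22 libraries were within the range of water and 1 was below it. Without replicate 1-s7 the members' medians at 180 min were 0.62 with chitin and -0.12 with flg22. The flg22 median was also -0.12 without flg22 replicate 3.

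If each MAMP is set against its own water libraries, with 1 per replicate number, the difference of responses depends on the choice. Over the 8 choices at 180 min the median difference was 0.43 to 0.92 and positive for 78 to 95 members, but between 1 and 37 members passed the test as higher with chitin (0.111% to 3.5% of all tested genes). Over the 4 choices at 30 min the median was -0.68 to -0.26, and between 2 and 36 members passed as lower (0.0738% to 10.6% of all). The choice that matches the study's controls by depth and by title number had a median of -0.26 at 30 min, positive for 28 members. With it, 3 members passed as lower (0.0943% of all tested genes) and 0 as higher (0.0533%). At 180 min the matching choice had a median of 0.72, positive for 89 members. There 1 member passed as higher (0.185% of all) and 0 as lower (0.0943%). The signs of the medians held under every choice, and the counts did not.

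The pattern was also looked for in libraries that had no part in choosing the genes. The rule was applied with 1 replicate number left out, and the genes it chose were then measured in the left-out libraries. Between 85 and 117 genes were chosen, of which 71 to 92 were among the 99. In the left-out libraries their median early difference was 3.33 to 3.83 with chitin and 3.93 to 4.35 with flg22, and 63 of 85, 94 of 103 and 80 of 117 genes again reached 3 with both. Both MAMPs were within 1 unit of water at 180 min for 75 of 85, 61 of 103 and 72 of 117. The whole rule was met again by 56, 56 and 48 genes. Flg22 was above chitin at 30 min for 84 of 85, 89 of 103 and 87 of 117 chosen genes. Chitin was above flg22 at 180 min for 57 of 85, 91 of 103 and 109 of 117. Left-out number 1 thus gave the weaker order at 180 min (median chitin difference from water 0.37, against 0.80 and 0.76 for numbers 2 and 3).

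Members were found on all 10 chromosomes, with 16 on A03, 13 each on A07 and A09 and 12 on A02, and 2 were on unplaced scaffolds. As a share of tested genes this was 0.254% (A04) to 0.552% (A07). In gene span, 35 members (35.4%) were shorter than 1000 bp, compared with 42.6% of the other early risers and 23.0% of all tested genes. The plus strand held 59 members and the minus strand 40, and none overlapped another listed gene.

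A few members were neighbours. In 4 cases 2 members were next to each other in gene order, each time on the same strand: Bra016823 and Bra016824 on A08, Bra020301 and Bra020302 on A02, Bra033431 and Bra033432 on A04, and Bra037568 and Bra037569 on A01. The gaps between them were 7353, 3385, 1953 and 4965 bp. All 4 were kept, since the naming rule asked for the 3 longest runs and these are equal in length. Reads shared between near-identical neighbours could link their values, which was not tested.

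The pair on A08 was called in both direct comparisons. Bra016823 had 52.2, 52.1 and 37.6 FPKM with chitin and 90.8, 131 and 90.2 FPKM with flg22 at 30 min, against 2.42 to 5.05 FPKM in water. Bra016824 had 34.0, 30.2 and 20.4 FPKM with chitin and 55.3, 71.0 and 42.1 FPKM with flg22, against 1.52 to 2.60 FPKM in water. Both were lower with chitin than with flg22 at 30 min, by 1.11 (SE 0.23, limma adjusted p = 0.0185) and by 0.97 (SE 0.21, limma adjusted p = 0.0200), and higher with chitin at 180 min, by 0.79 (SE 0.23, limma adjusted p = 0.0337) and 0.83 (SE 0.21, limma adjusted p = 0.0131).

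The pair on A02 differed from most members in being higher with chitin at 30 min in mean. Bra020301 had 22.4, 8.58 and 16.6 FPKM with chitin and 18.9, 7.56 and 5.02 FPKM with flg22, against 0.0446 to 0.302 FPKM in water. Bra020302 had 26.8, 10.7 and 15.0 FPKM with chitin and 13.7, 9.58 and 8.13 FPKM with flg22, against 0 to 0.684 FPKM in water. In both genes the chitin and flg22 libraries overlapped, and replicate 1 was the highest library of each MAMP.

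The pair on A04 was close to the early limit with chitin. Bra033431 averaged 128 ± 14.7 FPKM with chitin and 221 ± 31.2 FPKM with flg22 at 30 min (SD, n = 3 each), against 15.5 ± 5.18 FPKM in water (n = 5). Bra033432 averaged 50.7 ± 9.53 FPKM with chitin and 87.7 ± 16.0 FPKM with flg22, against 5.33 ± 1.71 FPKM in water. At 180 min the chitin minus flg22 difference was 0.05 (SE 0.28, limma adjusted p = 0.936) for Bra033431 and -0.04 (SE 0.27, limma adjusted p = 0.944) for Bra033432. On A01, Bra037568 had 15.6, 37.7 and 21.8 FPKM with chitin and 29.7, 42.0 and 45.6 FPKM with flg22 at 30 min, against 0.367 to 0.807 FPKM in water. Its neighbour Bra037569 started higher, with 73.2, 72.4 and 63.3 FPKM with chitin and 95.4, 95.4 and 102 FPKM with flg22, against 5.18 to 12.3 FPKM in water.

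Most other neighbours did not share the response. Of 190 genes next to a member, 116 were tested, and 22 of these (19.0%) were at least 1 unit higher than water with both MAMPs at 30 min, where 7.83% of all tested genes were. Only 6 reached 3 units with both. Their median difference from water at 30 min was -0.13 with chitin and -0.23 with flg22.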

How the data were processed

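RNA from 23 leaf disc libraries was sequenced. Per the submitters' processing notes and the methods, the authors trimmed reads with Trimmomatic (version 0.36), mapped them to the B. rapa v1.5 build with HISAT2 and estimated transcript abundance with StringTie (version 2.0). The authors deposited, per gene and library, a coverage signal, FPKM and TPM. FPKM are fragments relative to gene length and library total, and the deposited TPM are scaled to a fixed total per library. The deposited coverage was used only to derive aligned bases. DESeq2, which the authors ran on counts, was not used here.

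The members, gene lists and tests were chosen with earlier results of these data known. Differences are between condition means of log2(FPKM + 1), a pseudocount that understates the change of low genes. The 24384 genes that reached 1 FPKM in 3 or more libraries were fitted with limma (version 3.58.1, R version 4.3.3; 1 coefficient per condition, mean-variance trend, p-values Benjamini-Hochberg adjusted over all of them). On simulated data with 24384 genes, 62% of changes of 1 log2 unit were recovered for chitin against flg22 at each time, and of changes of 2 units 95% at 30 min and 92% at 180 min, with 10 and 9 false calls. Tables were handled with Python (version 3.11.15).

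Named members are the 6 with the largest mean early difference and at least 1 FPKM in water at 30 min, the 6 with the highest mean FPKM in the MAMP libraries at 30 min, the 4 and 3 largest adjusted differences between the MAMPs in each direction at 30 and 180 min, the 2 genes on each side of each limit, members of runs of adjacent members, and up to 2 members at 0 in every water library. Water libraries of 1 replicate number are told apart by their title number. Replicate numbers were not used to pair the samples in the main fit. Same-numbered correlations of deviations between chitin and flg22 libraries were 0.02 to 0.32 at 30 min and -0.11 to 0.18 at 180 min. Different-numbered ones were -0.43 to 0.29 and -0.24 to 0.24. With 3 libraries per condition this cannot exclude pairing, and pairing with water was not checked.

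Alternatives were a pseudocount of 0.1, no filter, TPM, median-ratio scaling, only the conditions compared, a replicate block, a 2-fold change with unadjusted p, water averaged by replicate number, and each library left out. The interaction test and the choices of water libraries were added after the data were seen. The name table used here pairs none of the members with a gene name, and no sequences were used.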

Additional observations from a re-analysis of the deposited data

Results flagged for a closer look

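The chitin minus flg22 difference was higher at 180 than at 30 min for 52 of the 99 members by limma's interaction term (adjusted p under 0.05), where 3.31% of all tested genes were. The contrast holds no water level, so a difference between the own controls of the 2 MAMPs is not removed from it. The water libraries contribute to the estimated spread. Among the 28 named members it was called for 17. The change of the difference was 3.12 for Bra004847, 2.12 for Bra002408, 2.10 for Bra022609, 2.03 for Bra018254, 1.95 for Bra038475, 1.92 for Bra004546 and 1.92 for Bra029145. It was 1.90 for Bra016823 and 1.80 for its neighbour Bra016824, 1.84 for Bra011500, 1.78 for Bra036481, 1.64 for Bra016253, 1.53 for Bra025953 and 1.41 for Bra001422. Smaller changes were found for Bra037568 (1.27), Bra018812 (1.14) and Bra037569 (1.08).

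One water library stood apart from the others of its group for some members, by the gap to its nearest neighbour relative to the group's range. Chance marks about 1 in 20 groups in this way if values are independent and normally distributed, which was not checked for these FPKM. Of the 198 groups examined (2 for each member), 25 were marked, all by their highest library. In 14 of the 25 the library was water replicate 1-s7 at 180 min, which was the highest. Among named members it had 10.2 FPKM for Bra004847, 35.9 FPKM for Bra022609, 5.81 FPKM for Bra036481, 3.27 FPKM for Bra006417 and 2.05 FPKM for Bra002408, where the next highest water libraries had 4.61, 21.0, 2.91, 1.72 and 0.671 FPKM. Water replicate 3-s17 at 30 min had 88.5 FPKM for Bra011500, with the next at 58.6 FPKM.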

How the results depend on the processing

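Which genes meet the rule depends on the scale near its limits. There were 114 with a pseudocount of 0.1 (57 of them among the 99), 143 with median-ratio scaling (91 shared), 95 with TPM (94 shared) and 98 with water averaged by replicate number (97 shared). Leaving out each library gave 91 to 116, and 56 genes met the rule in all of these. Over 32 choices of 1 water library per replicate number there were 73 to 133.

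At 30 min the 17 members called lower with chitin than with flg22 were 2 with a pseudocount of 0.1 and 0 when only the 2 conditions compared were fitted, where no gene of all tested passed. They numbered 4 to 19 with each library left out, and 2 to 36 over the choices of water libraries (3 with the choice matched by depth). Without flg22 30 replicate 1, 1 member was called higher. At 180 min the 44 called higher with chitin were 25 under a 2-fold change with unadjusted p, 20 to 42 with each library left out, and at the lowest 1 over the choices of water libraries. The choice matched by depth also gave 1. With a pseudocount of 0.1, with only the 2 conditions compared, and over those choices at the most, 1 member was called lower. The interaction count of 52 was 27 to 51 with each library left out. The replicate block gave 17 at 30 min, 46 at 180 min and 54 for the interaction.

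The median early difference was 4.08 for chitin and 4.62 for flg22 with a pseudocount of 0.1, and 4.03 and 4.63 with median-ratio scaling. With each library left out it was 3.53 to 3.68 for chitin and 4.09 to 4.24 for flg22. At 180 min the chitin median was 0.73 with a pseudocount of 0.1, and the flg22 median was -0.32 to -0.12 with each library left out. The chitin and flg22 differences of the 7 named genes kept their direction under all 12 alternatives each. Those of Bra038475 and Bra038796 kept their call. Bra004847 lost it under 8, Bra022609 under 4, Bra025953 and Bra029145 under 2 each and Bra018254 under 1. With only the 2 conditions compared the 4 genes named for 30 min had adjusted p of 0.231 to 0.239, and with a pseudocount of 0.1 Bra025953 and Bra029145 had 0.0573 and 0.0575. The cause was not tested. With 3 libraries per MAMP and time, differences both under and over 1 log2 unit can go uncalled. Those not called among the members reached -1.64 at 30 min and 1.32 at 180 min.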
